A study of Mus musculus with 43 samples.

Results

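The expression of 10 hypoxia and glycolysis genes was followed across mouse colon organoids and colon fibroblasts treated with regorafenib, 5-fluorouracil or autogramin-2. The genes were chosen by name: Slc2a1, Hk2, Pfkfb3, Pgk1, Ldha, Pdk1, Aldoa, Bnip3, Car9 and Angptl4. They are 10 of the 52636 gene rows in each of the 2 deposited tables, and the name Aldoa also matched a further row (11 rows in all) that stayed between 0 and 46 CP20M and was not used. CP20M is the deposited unit, reads of a gene per 20000000 counted reads of the library, without division by gene length.

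Cells short of oxygen stabilise the alpha subunit of the hypoxia-inducible factors (HIF), which otherwise is hydroxylated by the Egln oxygen sensors and destroyed through Vhl. HIF with its partner Arnt binds short DNA motifs and activates genes for glucose uptake, glycolysis, pH control and angiogenesis. The colon epithelium is known for its steep oxygen gradient towards the lumen, and many of these genes also answer to growth factor signalling. Slc2a1 brings glucose into the cell, Hk2 phosphorylates it, Pfkfb3 makes the activator of phosphofructokinase, Aldoa and Pgk1 catalyse later glycolytic steps, and Ldha turns pyruvate into lactate. Pdk1 inhibits the pyruvate dehydrogenase complex of mitochondria, Bnip3 marks mitochondria for autophagy, and Car9 is an acid-handling carbonic anhydrase of the cell surface. Angptl4 is a secreted inhibitor of lipoprotein lipase that is also a target of the PPAR lipid sensors.

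The series held 43 bulk RNA-seq libraries, of which 24 were organoids and 19 were fibroblasts. Colonoids came from adult Vil-cre/ERT2 mice with Apc wt/wt (lines M41, M40 and M1) and tumoroids from adult Vil-cre/ERT2 mice with Apc flox/flox (lines F11, M3 and M14). All of these mice carried the tamoxifen-dependent Cre, which the villin promoter drives in gut epithelium, and all were given tamoxifen. The genotypes differed by design in the floxed Apc alleles. They also differed in sex: the paper's supplement lists tumoroid line F11 as female and the other organoid lines used here as male. The part of sex in the results was not tested. Each organoid line came from 1 mouse and received, for 6 days, DMSO vehicle (Ve), regorafenib at 4 µM (R4) or 8 µM (R8), or 5-fluorouracil at 1 µM (5-FU). Regorafenib is a multi-kinase inhibitor given in chemorefractory colorectal cancer, and 5-FU is a thymidylate synthase inhibitor. Fibroblast cultures from C57B/6 mouse colon (lines M3, M3(2), M1(2) and M11) received for 7 days vehicle, R4, regorafenib at 10 µM (R10), autogramin-2 at 1 µM (A1), or R4 with A1 (R4A1). Autogramin-2 blocks autophagy through GramD1A. Each treatment was compared with the same vehicle libraries of its system, so these comparisons share their controls. Every group had n = 3 lines in organoids and n = 4 in fibroblasts, except R10, which had n = 3 because it lacked line M11.

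Organoid libraries held between 512591 and 22369336 counted reads (median 15697936) and fibroblast libraries between 7949965 and 12825919 (median 9039204). The lowest depth belonged to colonoid M41 with R4, in which 1 read was worth 39.0 CP20M, and the next organoid library had 4371813 reads. Epithelial markers (7 genes) summed to between 106341 and 349165 CP20M in organoids and at most 1535 in fibroblasts, while fibroblast markers (7 genes) summed to at least 110024 in fibroblasts and at most 119 in organoids. Whole-gene Apc ranged from 1542 to 4944 CP20M in colonoids and from 3813 to 6032 in tumoroids. It was not lower in tumoroids, and since a count over the whole gene includes exons outside a floxed segment, it could not check the labels. In bulk libraries, fewer cells of a type and less RNA per cell cannot be told apart.

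Per kilobase of exon, the median level over the 24 organoid libraries was highest for Aldoa at 5384 CP20M per kb. Ldha and Pgk1 came next with 3691 and 3204 CP20M per kb, and Slc2a1 stood at 1181. Hk2 reached 434, Pfkfb3 199, Car9 168, Pdk1 102 and Bnip3 96.9, all in CP20M per kb. Angptl4 was lowest with 8.76 CP20M per kb. The ranges over libraries overlapped among Aldoa, Ldha and Pgk1 and among Pfkfb3, Car9, Pdk1 and Bnip3. Those of Pgk1, Slc2a1 and Hk2 were separate from each other. The range of Car9 overlapped with those of Slc2a1 and Hk2, and the ranges of Pfkfb3 and Bnip3 overlapped with that of Hk2. In the 19 fibroblast libraries Aldoa, Ldha and Pgk1 again led, with medians of 6005, 3017 and 2874 CP20M per kb, followed by Slc2a1 at 732.5 and Hk2 at 373.6. Bnip3 had a median of 474.6 CP20M per kb there, Pfkfb3 139, Pdk1 96.5, Angptl4 61.3 and Car9 16.9. The 2 tables were made separately, so these levels were set side by side without a test.

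**Figure D1:**
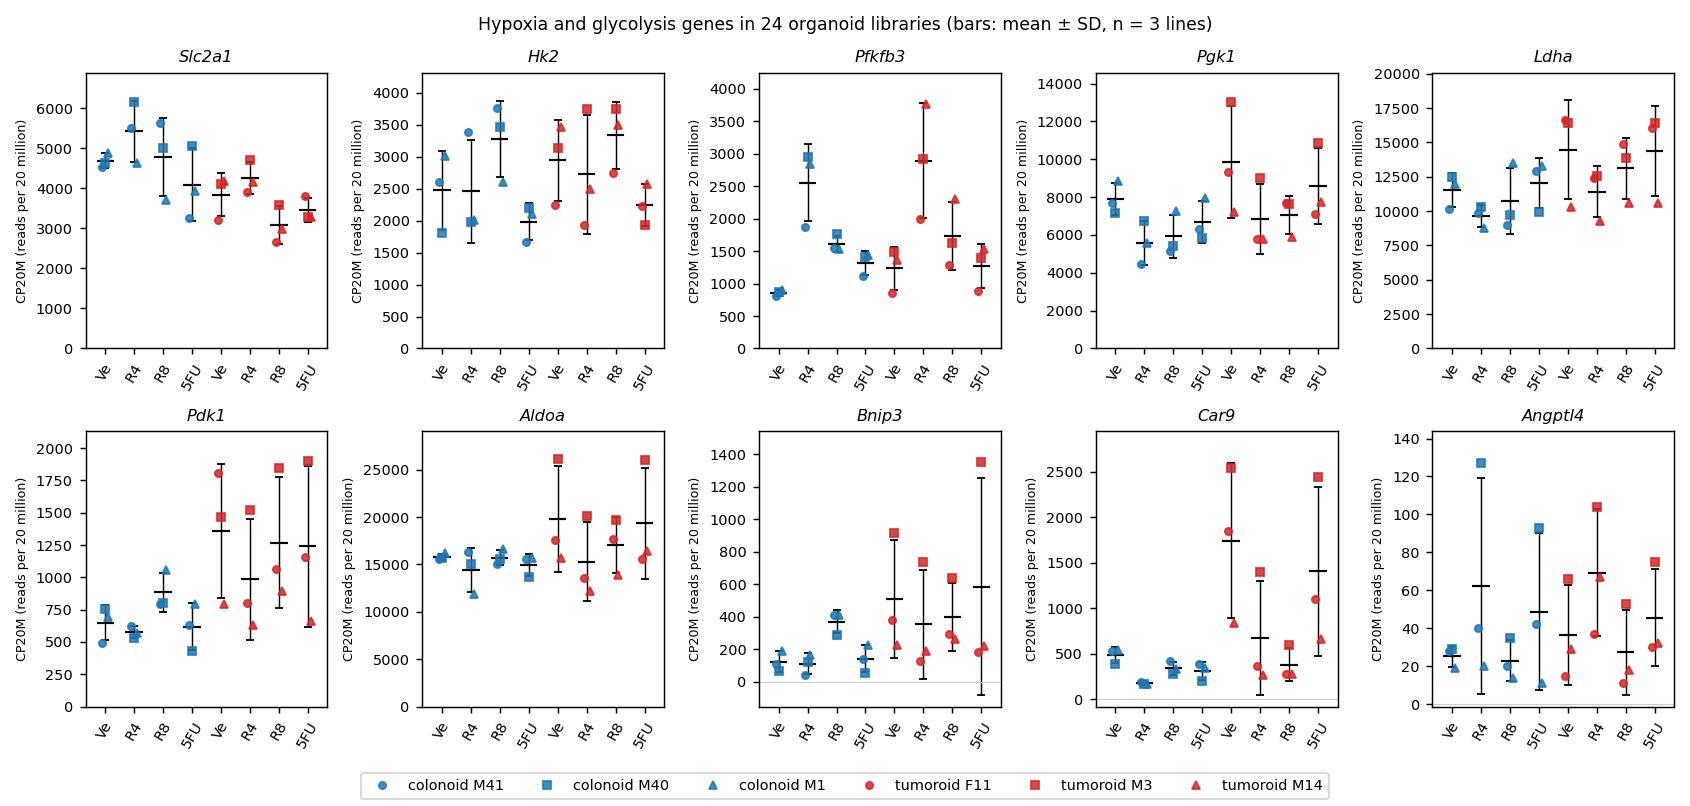
Level of each of the 10 genes in the 24 organoid libraries, in CP20M on linear axes; 1 point is 1 library, the shape gives the line, blue stands for colonoids and red for tumoroids, and bars are mean ± SD (n = 3 lines). Pfkfb3 stood highest under R4 in both genotypes and Car9 stood highest in vehicle and 5-FU tumoroids; Angptl4 stayed at or below 127 CP20M.

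Upstream sequence was available for 9 of the 10 genes (14 windows from RefSeq, GRCm38.p6). The windows of the 2 genes that passed the test in organoids, Pfkfb3 and Car9, and of Pgk1, the gene closest to passing, are shown, since they are where the core letters of a hypoxia response element would be read. Each holds the 250 bases before an annotated start, 5′ to 3′ along the gene, with ACGTG and GCGTG and their reverse complements CACGT and CACGC in capitals.
Pfkfb3, upstream start, chr2:11553930-11554179, minus strand: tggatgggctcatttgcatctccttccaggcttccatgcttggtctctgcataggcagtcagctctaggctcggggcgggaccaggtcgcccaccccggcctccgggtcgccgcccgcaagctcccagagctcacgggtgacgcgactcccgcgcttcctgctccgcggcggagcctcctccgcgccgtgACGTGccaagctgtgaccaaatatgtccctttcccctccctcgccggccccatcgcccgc
Pfkfb3, internal start, chr2:11502091-11502340, minus strand: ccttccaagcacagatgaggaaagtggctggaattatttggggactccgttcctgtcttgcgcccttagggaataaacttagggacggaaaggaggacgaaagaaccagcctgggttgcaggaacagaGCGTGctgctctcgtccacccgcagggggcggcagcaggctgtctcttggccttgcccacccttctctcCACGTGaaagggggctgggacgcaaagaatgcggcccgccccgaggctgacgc
Car9, chr4:43506776-43507025, plus strand: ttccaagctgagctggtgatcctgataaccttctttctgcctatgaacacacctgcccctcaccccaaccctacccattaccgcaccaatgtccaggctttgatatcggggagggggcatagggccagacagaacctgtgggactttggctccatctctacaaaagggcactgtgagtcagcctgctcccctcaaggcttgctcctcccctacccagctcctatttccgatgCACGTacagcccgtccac
Pgk1, chrX:106186850-106187099, plus strand: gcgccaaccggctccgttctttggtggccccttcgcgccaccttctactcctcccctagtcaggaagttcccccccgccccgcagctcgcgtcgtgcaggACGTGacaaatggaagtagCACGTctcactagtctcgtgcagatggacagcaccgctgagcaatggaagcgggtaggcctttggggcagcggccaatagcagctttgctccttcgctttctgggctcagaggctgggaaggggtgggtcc

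The window of the upstream Pfkfb3 start held 1 match, at position -60 from the start. The window of the internal Pfkfb3 start held GCGTG at -122 and a palindrome at -53 in which CACGT and ACGTG overlap. Car9 held a single match at -18, and Pgk1 held 2, at -150 and -131. In all, 12 of the 14 windows, and at least 1 window of each of the 9 genes, held a match (2 of the Aldoa windows overlap and share 1 match), beside 38.6% of all 32851 windows of the same length. ACGTG or CACGT alone occurred in 16.6% of all windows and GCGTG or CACGC in 28.2%. A match describes letters in the window and not a bound site.

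In vehicle-treated organoids, the comparison of tumoroids with colonoids asked how loss of Apc, the brake on Wnt signalling, bears on these genes, and 0 of the 9 genes tested were called. A call needed a Benjamini-Hochberg adjusted p under 0.05 and a change of at least 1.5-fold, in limma on log2(CP20M + 20); 3 of the 9 had an unadjusted p under 0.05 and edgeR also called 0. Across the 11320 genes tested, 0.627% were called higher and 0.76% lower. Car9 measured 532, 385 and 548 CP20M in colonoids M41, M40 and M1 and 1847, 2545 and 843 CP20M in tumoroids F11, M3 and M14. The log2 fold change of Car9 was 1.68 ± 0.50 (SE, limma adjusted p = 0.111, 95% CI 0.61 to 2.74). Bnip3 measured 110, 62 and 191 CP20M in the colonoid lines and 378, 918 and 224 in the tumoroid lines (log2 fold change 1.78 ± 0.62, limma adjusted p = 0.177). Pdk1 measured 495, 757 and 693 CP20M in colonoids and 1808, 1470 and 793 in tumoroids (log2 fold change 0.99 ± 0.34, limma adjusted p = 0.176). Slc2a1 measured 4544, 4630 and 4896 CP20M in colonoids and 3216, 4115 and 4181 in tumoroids (log2 fold change -0.30 ± 0.18, limma adjusted p = 0.472). The other 5 tested genes had log2 fold changes between 0.26 (Hk2) and 0.48 (Pfkfb3). Goblet markers differed between the same groups, with sums of 1197 to 13929 CP20M in vehicle colonoids and 38 to 142 in vehicle tumoroids. Of 4 tested, 3 (Clca1, Fcgbp and Muc2) passed both thresholds, lower in tumoroids. Among vehicle libraries these 3 reached the expression filter only in colonoids, so they are not counted as calls. The part of goblet markers in the values of the 9 genes was not tested. The effects of Apc loss, regorafenib and 5-FU in organoids and of R10 and R4A1 in fibroblasts are set side by side in the plot of fold changes.

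**Figure D2:**
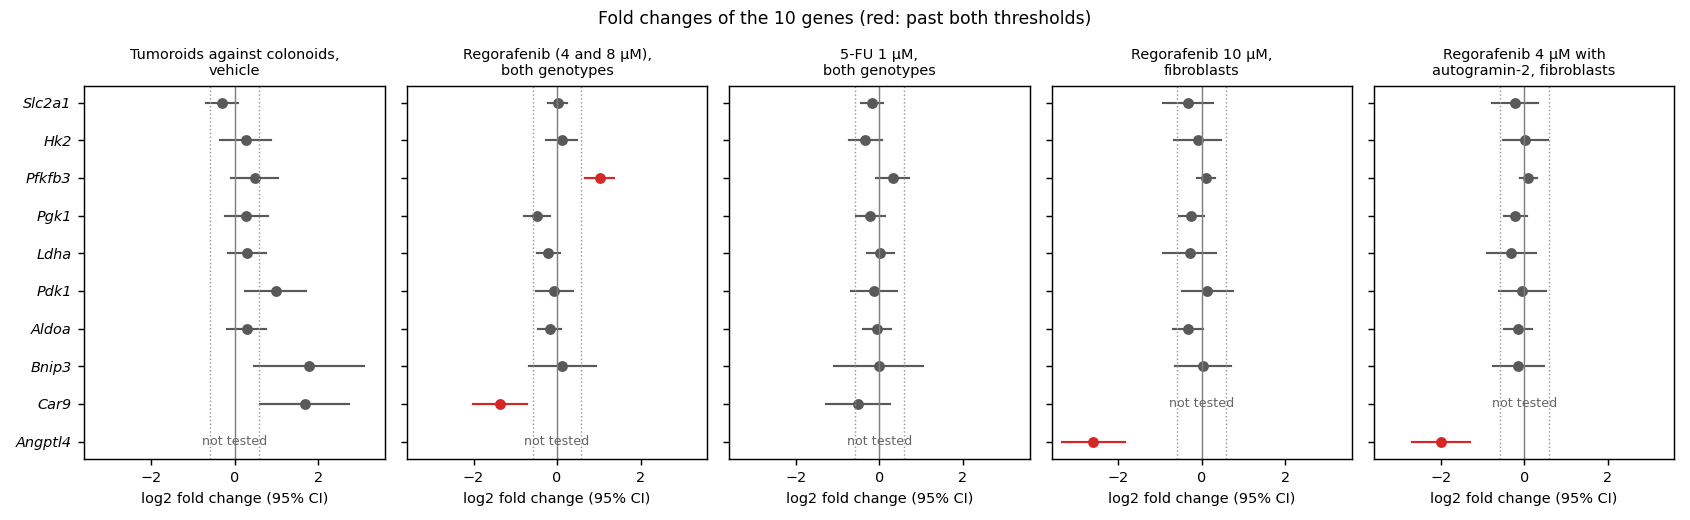
log2 fold change (x axis, with 95% CI) of each gene in 5 comparisons, with dotted lines at 1.5-fold in either direction; red marks genes past both thresholds and "not tested" marks genes below the expression filter. Pfkfb3 (1.02) and Car9 (-1.37) passed with regorafenib in organoids, and Angptl4 passed with R10 (-2.60) and R4A1 (-1.99) in fibroblasts.

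Line M3 stood apart among tumoroids. It was the highest of the 6 organoid lines in 24 of the 40 combinations of gene and treatment, and in all 4 treatments for Car9, Bnip3 and Aldoa. Bnip3 in M3 measured 918 CP20M with vehicle, 737 with R4, 640 with R8 and 1355 with 5-FU, beside 129 to 378 in the other tumoroid lines. Proliferation markers (5 genes) did not follow that order: their sum in vehicle was 32721 CP20M in F11 against 3397 in M3 and 3247 in M14.

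Regorafenib, compared with vehicle over both doses and both genotypes, raised Pfkfb3 and lowered Car9. These were 2 of the 9 members tested, beside 7.58% of all 11320 genes called higher and 8.63% called lower. Pfkfb3 rose 2.03-fold (log2 fold change 1.02 ± 0.16 SE, limma adjusted p = 0.000415) and Car9 fell to 0.386 of its vehicle level (log2 fold change -1.37 ± 0.31, limma adjusted p = 0.00404). Both moved the same way in 6 of 6 lines. Regorafenib is known to reach kinases of the VEGF, PDGF, FGF and RAF pathways.

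Pfkfb3 measured 811, 873 and 898 CP20M in vehicle-treated colonoids M41, M40 and M1. With R4 the same lines measured 1873, 2946 and 2837 CP20M, and with R8 1549, 1759 and 1528. All 6 treated colonoid libraries lay above all 3 controls, and the value under R4 in M41 rested on 48 reads. In tumoroids F11, M3 and M14 Pfkfb3 measured 859, 1485 and 1366 CP20M with vehicle, 1997, 2913 and 3767 with R4, and 1280, 1618 and 2306 with R8. Each tumoroid line rose under both doses, but the groups overlapped because F11 with R8 lay below M3 and M14 with vehicle. Within colonoids Pfkfb3 was the only member called, beside 5.41% of genes called higher and 7.84% lower (2.30-fold, log2 SE 0.23, limma adjusted p = 0.00336). Within tumoroids, where 4.11% of genes were called higher and 2.68% lower, Pfkfb3 also passed (log2 fold change 0.84 ± 0.23, limma adjusted p = 0.0391). The tumoroid call was not firm: it was lost on leaving out colonoid line M40 or M1 or any 1 tumoroid line, with adjusted p between 0.0716 and 0.226 and log2 fold changes between 0.71 and 0.99.

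Car9 measured 532, 385 and 548 CP20M in colonoids M41, M40 and M1 with vehicle, 196, 170 and 170 with R4, and 417, 277 and 334 with R8. Every R4 value lay below every vehicle value, while R8 overlapped with vehicle, and the R4 value of M41 rested on 5 reads. The log2 fold change within colonoids was -0.92 ± 0.43 (limma adjusted p = 0.167), and with line as a block it passed at the same size (SE 0.23, adjusted p = 0.0171). In tumoroids F11, M3 and M14 Car9 fell from 1847, 2545 and 843 CP20M to 366, 1398 and 263 with R4 and to 279, 594 and 277 with R8. In each tumoroid line both treated values lay below its own control, and the log2 fold change was -1.83 ± 0.43 (limma adjusted p = 0.0196). Leaving out tumoroid F11, the line with the steepest fall, gave -1.52 with adjusted p = 0.212.

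**Figure D3:**
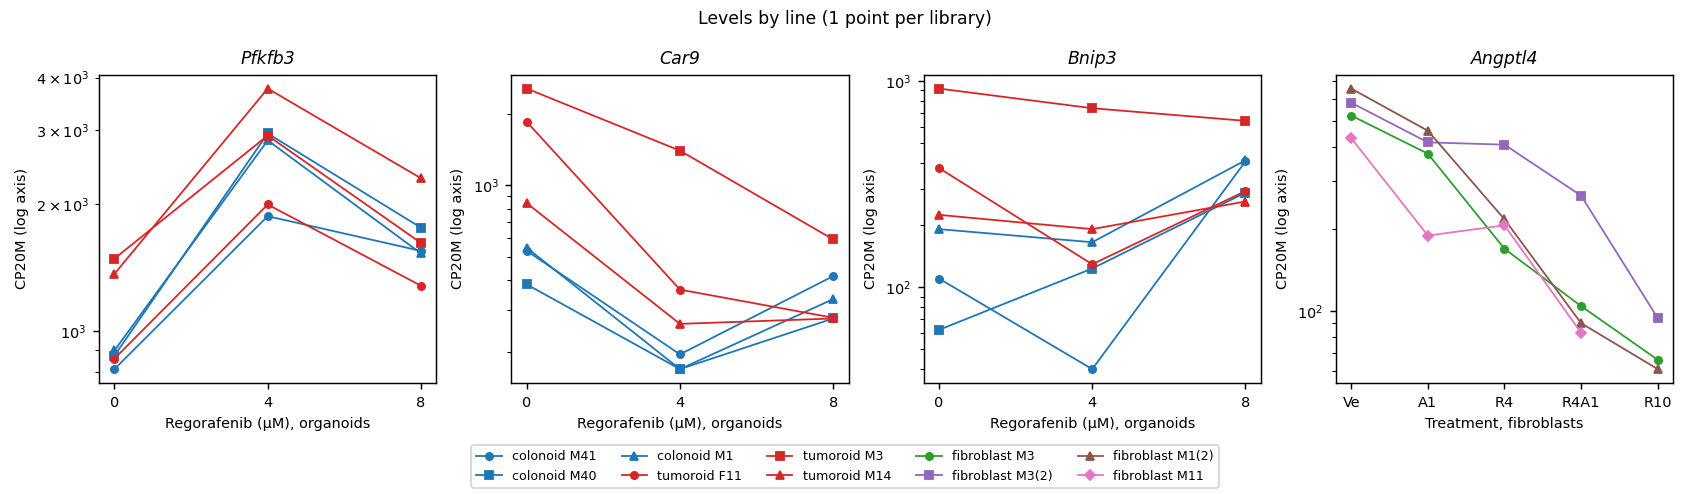
Levels by line, in CP20M on log axes: Pfkfb3, Car9 and Bnip3 against regorafenib dose (0, 4 and 8 µM) in the 6 organoid lines, and Angptl4 by treatment in the 4 fibroblast lines, with 1 point per library. Pfkfb3 peaked at 4 µM in all 6 lines; Angptl4 was lowest with R10 in each of the 3 lines that received it.

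Pgk1 was the third member with an adjusted p under 0.05 in the pooled comparison, but its change was under the fold threshold (log2 fold change -0.47 ± 0.15, limma adjusted p = 0.0271, lower in 6 of 6 lines). In colonoids M41, M40 and M1 it measured 7703, 7186 and 8855 CP20M with vehicle, 4448, 6763 and 5559 with R4 and 5153, 5402 and 7251 with R8. In tumoroids F11, M3 and M14 it measured 9315, 13043 and 7192 with vehicle, 5780, 9001 and 5796 with R4 and 7669, 7615 and 5884 with R8. Each line's treated values were below its own control in both genotypes, while the groups overlapped. The median over all genes was -0.10 in this comparison, and with trimmed-mean scaling Pgk1 was at -0.41 where the median was -0.04.

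The remaining 6 tested members showed no call over both genotypes, with log2 fold changes between -0.21 and 0.13. Ldha, the lactate-forming enzyme, had a log2 fold change of -0.21 ± 0.13 and was lower in 6 of 6 lines (limma adjusted p = 0.273). Aldoa stood at -0.18 ± 0.13, Pdk1 at -0.07 ± 0.21, Slc2a1 at 0.01 ± 0.11 and Hk2 at 0.11 ± 0.17, in log2 fold change. For Slc2a1 the 95% CI of that change ran from -0.22 to 0.24. Angptl4 was below the filter in organoids: it ranged from 11 to 127 CP20M over all 24 libraries, highest in colonoid M40 with R4, and vehicle and regorafenib libraries overlapped in both genotypes.

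Bnip3 varied most between libraries, from 40 to 1355 CP20M. In colonoids M41, M40 and M1 it measured 110, 62 and 191 CP20M with vehicle, 40, 123 and 165 with R4 and 407, 287 and 412 with R8, so that all R8 values lay above all others. In tumoroids F11, M3 and M14 it measured 378, 918 and 224 CP20M with vehicle, 129, 737 and 191 with R4 and 292, 640 and 260 with R8. The value of colonoid M41 under R4 was a single read. Over both doses the log2 fold change was 0.69 ± 0.54 in colonoids (limma adjusted p = 0.413) and -0.43 ± 0.54 in tumoroids (adjusted p = 0.723). Without the M41 R4 library and with line as a block, a fit chosen after the data were seen, Bnip3 passed in colonoids (log2 fold change 0.95 ± 0.25, adjusted p = 0.0131).

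Whether the genotypes responded differently to regorafenib was tested in the same model. By limma 0 members were called, 0 had an unadjusted p under 0.05 and edgeR called 0, beside 0.00883% of genes called with a more positive and 0.0% with a more negative response in tumoroids. The difference for Bnip3 was -1.13 on the log2 scale (95% CI -2.75 to 0.50, limma adjusted p = 1.00) and that for Car9 was -0.91 (95% CI -2.21 to 0.39). The interval for Pfkfb3 ran from -1.06 to 0.34. These intervals include differences past the fold threshold.

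Between the 2 doses, R8 against R4 over both genotypes, 0 members were called by limma and 0 by edgeR, and 3 had an unadjusted p under 0.05, beside 0.186% of genes called higher and 0.265% lower. Pfkfb3 was lower with R8 than with R4 in 6 of 6 lines (log2 difference -0.68 ± 0.19, limma adjusted p = 0.127). With line as a block it passed at the same size (SE 0.12, adjusted p = 0.0170), and it also passed without the M41 R4 library (-0.78, adjusted p = 0.0442). Bnip3 was 1.07 ± 0.44 log2 units higher with R8 (adjusted p = 0.270; higher in 5 of 6 lines), and was called only without the M41 R4 library and with the line block together (0.81, adjusted p = 0.0489), a fit chosen after the data were seen. Slc2a1 had a difference of -0.33 and was lower in 5 of 6 lines (adjusted p = 0.235). Slc2a1 in tumoroids measured 3907, 4705 and 4169 CP20M with R4 and 2673, 3594 and 2975 with R8, which did not overlap. With line as a block the calls over all genes increased from 51 to 201.

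5-FU over both genotypes gave 0 member calls by limma and by edgeR and 0 members with an unadjusted p under 0.05, beside 1.53% of the 11562 genes tested called higher and 0.822% lower. Car9 had a log2 fold change of -0.51 ± 0.37 and was lower in 6 of 6 lines (limma adjusted p = 0.570). Pfkfb3 stood at 0.32 ± 0.19 (adjusted p = 0.454): in colonoids M41, M40 and M1 it measured 1110, 1405 and 1437 CP20M with 5-FU, all above the vehicle values, and in tumoroids 891, 1396 and 1532, overlapping with vehicle. Between genotypes, 0 members differed in this response by limma, beside 0.0% of genes in either direction, where 87 genes and 0 members had an unadjusted p under 0.05 and edgeR also called 0.

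Markers of differentiated epithelium moved with regorafenib. Absorptive colonocyte markers (6 genes) summed to between 11339 and 16977 CP20M in vehicle colonoids, 246 to 3411 with R4 and 82 to 1087 with R8. In tumoroids they summed to between 1428 and 5769 with vehicle, 168 to 226 with R4 and 133 to 271 with R8; Car4 was at 0 in every R4 and R8 colonoid library, beside at most 10 CP20M with vehicle, and at 0 in every tumoroid library, vehicle included. Goblet markers (5 genes) went from between 1197 and 13929 CP20M in vehicle colonoids to between 30 and 112 with R8. In the pooled regorafenib comparison 1 of 2 tested absorptive and 3 of 4 tested goblet markers passed both thresholds, all lower. With line as a block these counts became 2 and 4. Among the goblet markers, Clca1 reached the expression filter only in vehicle libraries. Of the 7 epithelial markers, 1 was called lower (Cdx2, a transcription factor of gut epithelium). Macrophage markers (6 genes) summed to between 423 and 511 CP20M in vehicle colonoids and between 596 and 3245 with R8, and to between 509 and 573 and between 854 and 1736 in tumoroids. Most of that difference was Cd68, a lysosomal protein, at 62.0 and 1230 CP20M on average in colonoids and 135 and 855 in tumoroids with vehicle and R8. Adgre1 and Lyz2 were at 0 in every R8 library, and also in every vehicle tumoroid library. The 2 tested markers, Cd68 and Csf1r, both had an unadjusted limma p under 0.05 in the pooled comparison. Cd68 passed both thresholds, higher, but reached the expression filter in 8 regorafenib and 0 vehicle libraries, so it is not counted as a call. The part of all these markers in the changes of Pfkfb3, Car9 and Bnip3 was not tested.

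Among the other genes of the pathway, HIF subunits and their regulators (10 genes, 8 tested) gave 0 calls with regorafenib over both genotypes by limma and a median log2 fold change of 0.10, beside -0.10 for all genes; 3 had an unadjusted p under 0.05 and edgeR called 1. Egln3, an oxygen sensor that is itself HIF-induced, came closest, with a log2 fold change of 0.58 ± 0.20 (limma adjusted p = 0.0437), just under the fold threshold; it passed with trimmed-mean scaling. It averaged 1323, 2021 and 1507 CP20M in colonoids with vehicle, R4 and R8, and 1273, 2139 and 2585 in tumoroids.

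Of the other glycolysis enzymes and transporters (23 genes, 16 tested), 1 was called higher and 1 lower. The muscle-type phosphofructokinase Pfkm averaged 313, 541 and 1050 CP20M in colonoids with vehicle, R4 and R8 and 495, 834 and 1354 in tumoroids (log2 fold change 1.16 ± 0.13, limma adjusted p = 2.47e-05), and was the 1 gene of the list called between R8 and R4 (0.81 ± 0.15, adjusted p = 0.0347). Aldoc, the brain-type aldolase, was called lower (-1.34 ± 0.40, adjusted p = 0.0217), with 382.8 CP20M on average in vehicle and 173.1 in treated libraries. In tumoroids alone Hk1, the constitutive hexokinase, was called higher as well (0.77 ± 0.19, adjusted p = 0.0246). The median of the list was -0.22.

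The list of pyruvate entry into mitochondria (11 genes, 10 tested) also held the pyruvate dehydrogenase complex and its regulators. It gave 2 calls, both lower: Pdp1, a pyruvate dehydrogenase phosphatase (-0.997 ± 0.21, limma adjusted p = 0.00283), and Pdk3, a kinase of the same family as Pdk1 (-0.76 ± 0.18, adjusted p = 0.00585). In colonoids Pdp1 averaged 1014 CP20M with vehicle, 434 with R4 and 301 with R8. Both were lower in 6 of 6 lines, and their enzymes act in opposite directions on the same complex. In colonoids alone both were called (Pdp1 -1.50 ± 0.30, limma adjusted p = 0.00381). In tumoroids alone 0 genes of the list were called by limma, by edgeR or with line as a block. The largest change there was that of Pdk3 (-0.53 ± 0.25, limma adjusted p = 0.233). The difference in response between genotypes was called for 0 genes of the list.

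Other hypoxia-induced genes (20 genes, 16 tested) had a median of -0.11, and P4ha2 (1.19 ± 0.26, limma adjusted p = 0.00383) and P4ha1 (0.66 ± 0.22, adjusted p = 0.0340), hydroxylases of collagen, were called higher. P4ha2 averaged 242 CP20M in vehicle colonoids, 710 with R4 and 909 with R8. Within colonoids both hydroxylases and Gys1 passed both thresholds by limma, higher. Within tumoroids neither P4ha2 nor P4ha1 was called by limma without the line block. Plod2, another collagen hydroxylase, averaged 78.3 CP20M in vehicle and 327 with regorafenib; it passed the expression filter only through treated libraries, so it is described and not counted as a call. Car12, a carbonic anhydrase related to Car9, averaged 91.7 CP20M in vehicle colonoids and 582 in vehicle tumoroids (log2 fold change 2.37 ± 0.51). Among vehicle libraries it reached the expression filter only in tumoroids, so it is likewise described and not counted as a call. No other gene of the list was called by limma between genotypes in vehicle. With 5-FU Plod2 averaged 213 CP20M, and no gene of the list that reached the filter in vehicle was called. PPAR targets (7 genes, 4 tested) gave 0 calls by limma in each organoid comparison; with regorafenib over both genotypes edgeR called 0 and 1 had an unadjusted p under 0.05. The largest difference with regorafenib was that of Plin2, a coat protein of lipid droplets (0.36 ± 0.19, adjusted p = 0.177).

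In organoids, a block for line added calls in these lists. With regorafenib it added Ldhb over both genotypes (higher), Aldoc in colonoids (lower), and Pfkl (lower), Egln3 and P4ha2 (higher) in tumoroids. For R8 against R4 it added Ldhb and Hif1a (higher) and Ndrg1 (lower), and with 5-FU Pfkp and Ndrg1 (lower). Over all 11320 genes, the block called 935 higher and 1091 lower over both genotypes. It called 765 and 1110 in colonoids and 659 and 436 in tumoroids. For R8 against R4 it called 102 higher and 99 lower, and with 5-FU 440 and 144 of 11562.

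**Figure D4:**
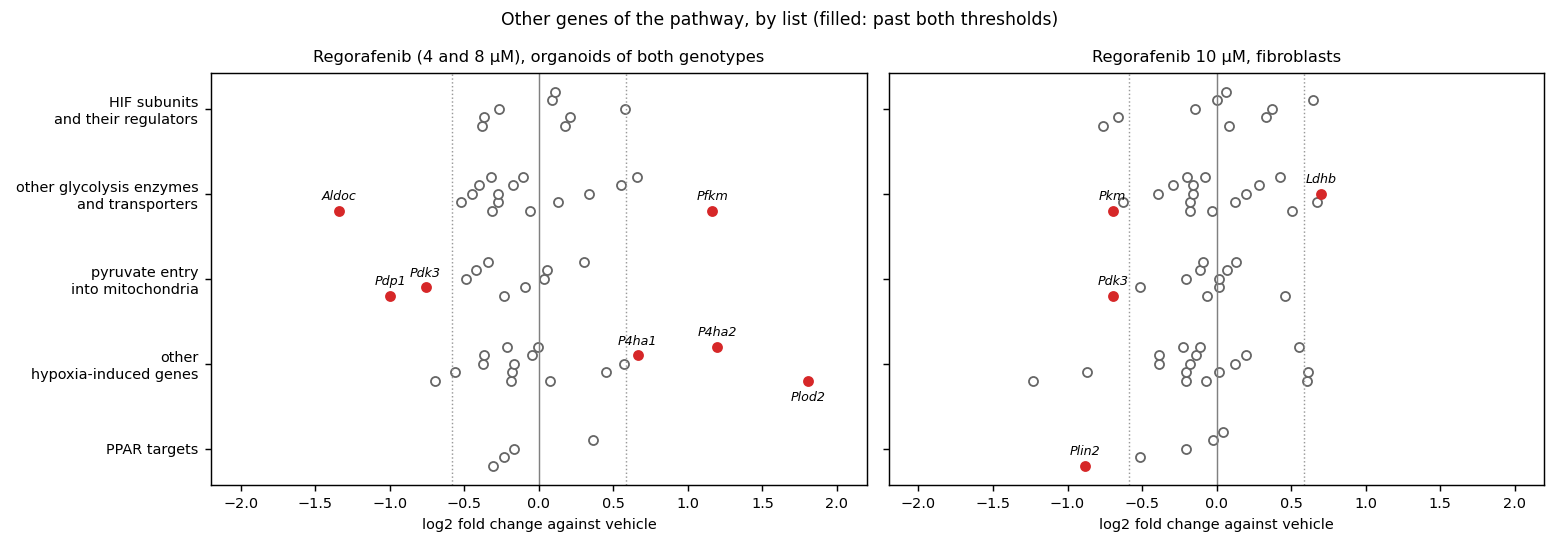
log2 fold change against vehicle of the tested genes in 5 lists (rows), with regorafenib in organoids (left) and R10 in fibroblasts (right); filled red points passed both thresholds and dotted lines mark 1.5-fold in either direction. In organoids P4ha2 and P4ha1 of the hypoxia list passed above 0, and Plod2, also red, reached the expression filter only in treated libraries; in fibroblasts no gene of that list passed.

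In fibroblasts, regorafenib was tested on the stromal side, and Angptl4 was the member that changed. It measured 522, 582, 656 and 431 CP20M with vehicle in lines M3, M3(2), M1(2) and M11. With R10 it measured 66, 94 and 61 CP20M in M3, M3(2) and M1(2), far below every control. This was 1 of 9 members tested, beside 3.25% of the 11032 genes tested called higher and 4.09% lower, and Angptl4 fell to 0.165 of its vehicle level (log2 fold change -2.60 ± 0.36, limma adjusted p = 0.000206; 95% CI -3.35 to -1.85). With R4 it measured 169, 408, 217 and 206 CP20M, each below its own control and without overlap. That change was not called (log2 fold change -1.13 ± 0.33, limma adjusted p = 0.107), beside 0.671% of genes called higher and 0.354% lower. With line as a block it was called at the same size (SE 0.21, adjusted p = 0.00110), and calls over all genes rose from 113 to 796. Without line M3(2), in which the difference was smallest, it was called (-1.34, adjusted p = 0.0481).

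Autogramin-2 alone gave 0 member calls by limma, beside 0.0% of genes higher and 0.0% lower; 120 genes and 0 members had an unadjusted p under 0.05, and edgeR also called 0. Angptl4 measured 378, 416, 459 and 189 CP20M with A1, below the own control in 4 of 4 lines but overlapping with vehicle (log2 fold change -0.63 ± 0.33, adjusted p = 1.00). The combination R4A1 lowered it to 104, 265, 90 and 83 CP20M, without overlap with vehicle (log2 fold change -1.99 ± 0.33, limma adjusted p = 0.00404), beside 0.734% of genes called higher and 0.925% lower. The call was lost without M3 or without M1(2), at adjusted p = 0.101 and 0.142. The M3(2) value of 265 stood far from the other 3 lines. R4A1 against R4 showed a further -0.86 ± 0.33 for Angptl4, lower in 4 of 4 lines but not called (adjusted p = 0.870), beside 0.0% of genes higher and 0.00906% lower. With line as a block it was called (SE 0.21, adjusted p = 0.0388), with 158 genes called in place of 1. R10 against R4 gave -1.47 ± 0.36 (adjusted p = 0.0930), beside 0.0906% of genes higher and 0.0544% lower, and was called with line as a block (-1.62 ± 0.23, adjusted p = 0.000543), with 664 genes called in place of 16. The share of these calls that were higher went from 62.5% to 16.6%.

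**Figure D5:**
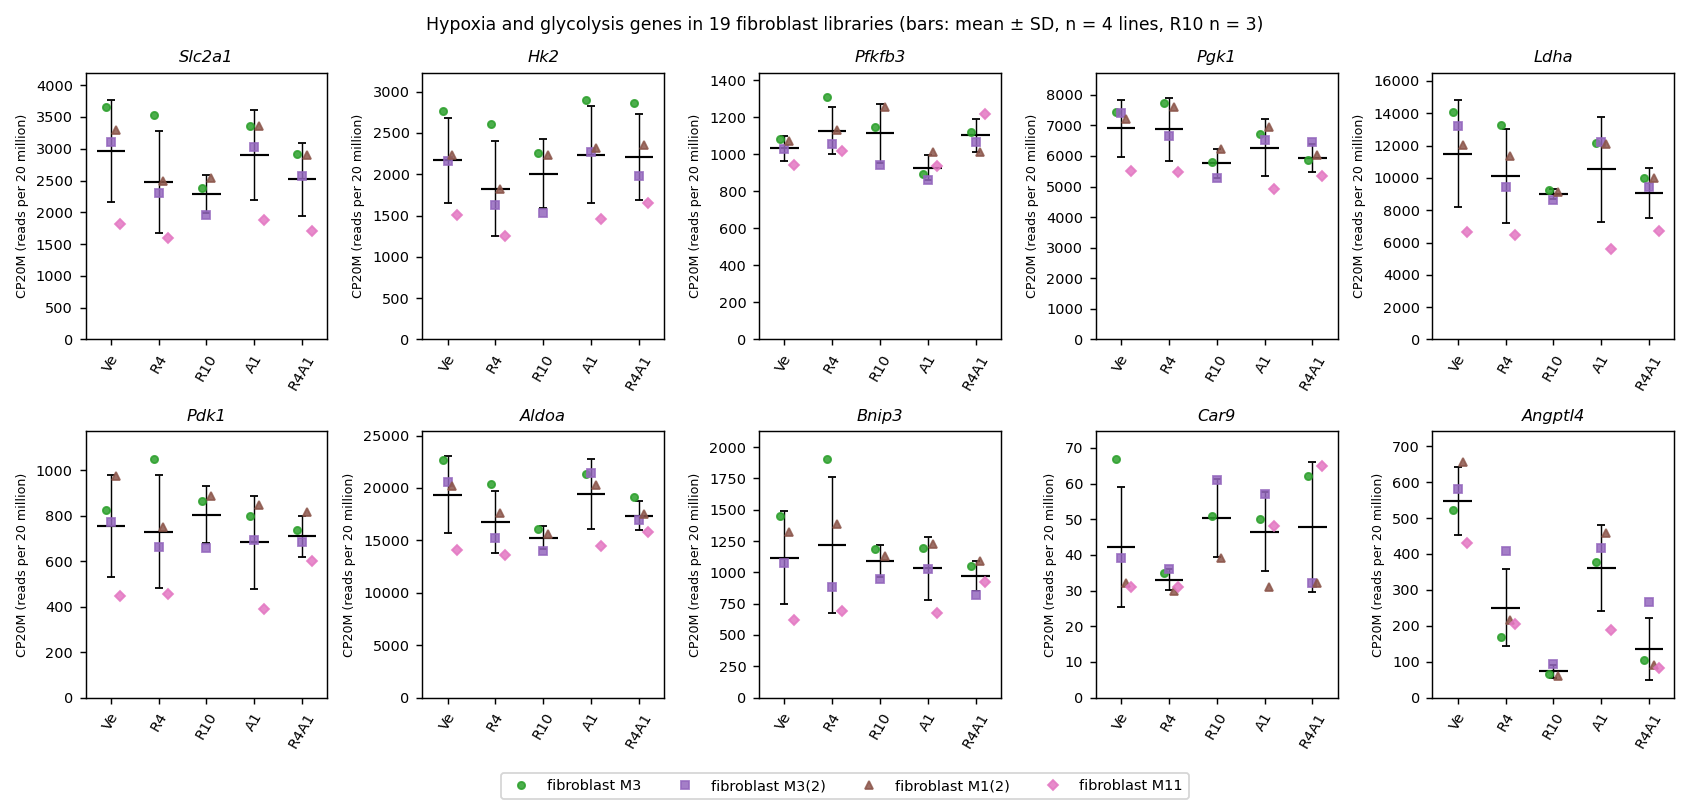
Level of each of the 10 genes in the 19 fibroblast libraries, in CP20M on linear axes; 1 point is 1 library, colour and shape give the line, and bars are mean ± SD (n = 4 lines, n = 3 with R10). Angptl4 fell from between 431 and 656 with vehicle to between 61 and 94 with R10, and line M11 was lowest for most other genes.

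Slc2a1, Ldha, Aldoa and Pgk1 were lower with R10 in 3 of 3 lines, and line M11, which R10 lacked, had the lowest value of the 4 lines in 33 of 40 combinations of gene and treatment. Slc2a1 measured 3658, 3099, 3295 and 1812 CP20M with vehicle in M3, M3(2), M1(2) and M11 and 2387, 1960 and 2534 with R10 in the first 3 lines. Against all 4 controls its log2 fold change was -0.33 ± 0.28 (limma adjusted p = 0.513), and within lines, with line as a block, it was -0.52 ± 0.08 (adjusted p = 0.000102). Within lines, Ldha stood at -0.51 ± 0.10 (adjusted p = 0.000713), Aldoa at -0.43 ± 0.08 (adjusted p = 0.000502) and Pgk1 at -0.34 ± 0.07 (adjusted p = 0.000779). The changes of these 4 genes within lines ran from -30.5% (Slc2a1) to -21.2% (Pgk1), in a blocked fit in which 5518 of the 11032 genes had an unadjusted p under 0.05 and 1519 were called. None reached the fold threshold, so none was called in either fit. Ldha measured 14045, 13182 and 12035 CP20M with vehicle and 9248, 8649 and 9122 with R10 in M3, M3(2) and M1(2), without overlap among these lines.

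Hk2 stood at -0.26 ± 0.08 within lines with R10 (adjusted p = 0.0190). Pfkfb3, which had risen in organoids, lay between 940 and 1083 CP20M with vehicle, 1019 and 1309 with R4 and 942 and 1257 with R10 in fibroblasts, with a log2 fold change of 0.10 ± 0.10 for R10 (limma adjusted p = 0.595). Its 95% CI ran from -0.12 to 0.32, and the organoid and fibroblast tables were not compared in a test. Pdk1 (0.13 ± 0.29) and Bnip3 (0.02 ± 0.32) had intervals that reached past the fold threshold, and within lines they stood at -0.05 ± 0.13 (adjusted p = 0.769) and -0.15 ± 0.16 (adjusted p = 0.488). Car9 stayed between 30 and 67 CP20M in all fibroblast libraries, below the filter, and was not tested.

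In the fibroblast lists, HIF subunits and their regulators (9 tested) gave 0 calls with R10 by limma and by edgeR, and 1 had an unadjusted p under 0.05. Egln3 had the largest change (-0.76 ± 0.36, adjusted p = 0.187) and passed with line as a block (adjusted p = 3.47e-06), with means of 426.5 CP20M with vehicle and 231.7 with R10. Epas1, the HIF2 alpha subunit, averaged 733 CP20M with vehicle and 1650 with R4, a log2 fold change of 1.11 ± 0.38 that passed with line as a block (adjusted p = 7.66e-05) and not without (0.176). Endothelial markers, given below, were also higher with R4, and their part in the Epas1 value was not tested. The other glycolysis genes (18 tested) gave 1 call in each direction with R10: Pkm, pyruvate kinase, was lower (-0.70 ± 0.20, limma adjusted p = 0.0272) and Ldhb, the heart-type lactate dehydrogenase, was higher (0.70 ± 0.18, adjusted p = 0.0167). Pdk3 was called lower with R10 (-0.69 ± 0.15, adjusted p = 0.00484) and with R4A1 (-0.63 ± 0.14, adjusted p = 0.0206), as the only call among 11 pyruvate entry genes. Of the other hypoxia-induced genes (17 tested) 0 were called by limma, 5 had an unadjusted p under 0.05 and edgeR called 2, the largest change being that of Ndrg1, a stress-response gene (-1.23 ± 0.52, adjusted p = 0.133); it passed with line as a block (adjusted p = 0.00142). Among PPAR targets (5 tested), which share a regulator with Angptl4, Plin2 was called lower with R10 (-0.88 ± 0.26, adjusted p = 0.0337), at 3269 CP20M on average with vehicle and 1711 with R10.

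The R10 counts of these lists, with line as a block, became 1 higher and 1 lower for HIF subunits and regulators (Epas1, Egln3). They became 2 higher and 1 lower for glycolysis (Eno2 added) and 2 lower for pyruvate entry (Pdk4 added). For the hypoxia list they became 2 lower (Gbe1, Ndrg1) and for PPAR targets 2 lower (Pdk4 added). Over all 11032 genes, the same blocked fit called 668 higher and 851 lower.

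Markers of other states also moved in fibroblasts. All 5 proliferation markers passed both thresholds with R10, lower, their sum going from between 4715 and 6929 CP20M to between 1856 and 2071. Of these, Cdk1 reached the expression filter in 4 vehicle and 0 R10 libraries, so it is not counted as a call. Smooth muscle markers (4 genes, 3 tested, 1 called higher) summed to between 7570 and 23293 CP20M with vehicle and 30434 to 38725 with R10. Macrophage markers (6 genes, 2 tested, 1 called lower) summed to between 1058 and 5406 with vehicle and at most 621 with R10. The vehicle values of 7570 and 5406 were those of line M11, which R10 lacked. In the lines that received R10, the vehicle sums were 14857 to 23293 for smooth muscle and 1058 to 2403 for macrophage markers. Of the 7 fibroblast markers, 2 (Pdgfra and Col3a1) were called lower. Under the block, 3 smooth muscle markers were called higher and 3 fibroblast markers lower with R10, and with R4A1 3 proliferation markers were called lower in place of 0. Endothelial markers (5 genes) were higher with R4 in 4 of 4 lines, from 1236, 11153, 2107 and 2916 CP20M in sum to 1996, 30444, 7039 and 8606. Without the block, limma and edgeR called 0 of them in each comparison, with 1 unadjusted p under 0.05 for R4 and 0 elsewhere, but with line as a block 5 were called higher with R4, 1 higher with R4A1, 5 lower for R10 against R4 and 3 lower for autogramin-2 added to R4. Angptl4 was also called with the block in each of these 4 comparisons, lower each time. It was called lower with R10 against vehicle as well, where the block called 0 endothelial markers. Over all genes, the block called 505 higher and 291 lower with R4, and 293 and 478 with R4A1. It called 110 higher and 554 lower for R10 against R4, and 3 and 155 for autogramin-2 added to R4. No proliferation, smooth muscle, macrophage or endothelial marker was at 0 in every library of a group. The part of these markers in the results on Angptl4 and on the listed genes was not tested.

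Car9 lies at chr4:43506966-43513729 on the plus strand, Pfkfb3 at chr2:11471433-11554077 on the minus strand, Pgk1 at chrX:106187100-106203699 on the plus strand, Bnip3 at chr7:138890836-138909519 on the minus strand and Angptl4 at chr17:33773750-33781830 on the minus strand (GRCm38). All are protein-coding genes, and the counts cover all their exons. The genes whose pattern was most like that of the leading members were taken over all libraries of a table, as a description. In the 24 organoid libraries, Gm12454 (Pearson r = 0.943), Unc93b1 (r = 0.867) and Pfkl (r = 0.859) came closest to Car9 among 11553 genes. Gm12454 is annotated antisense to Car9 and shares 214 exon bases with it, and the strand setting of the counting was not given in the sources used here, so reads of the pair may not be separable. In the 19 fibroblast libraries, Hnrnpl (r = 0.952), Fmnl3 (r = 0.947) and Kif23 (r = 0.946) came closest to Angptl4 among 11023 genes. These libraries share lines and treatments and are not independent points. Among the other members, Bnip3 shares 504 exon bases with the antisense gene Gm45507, Slc2a1 shares 105 with Gm12868 and Aldoa 25 with Fam57b, and Pdk1, Pgk1, Ldha and Angptl4 overlap no annotated gene.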

How the data were processed

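Libraries of mouse colon organoids and fibroblasts were analysed from the authors' gene tables. According to the submitters' processing notes and the study's methods, the authors trimmed reads with Trimmomatic 0.36, aligned them to GRCm38 with STAR 2.5.3a and counted genes with HTSeq 0.9.1; strand setting and duplicate handling are not given in the sources used here, and the labels and the methods name different library kits. The deposited unit is CP20M, a normalised read signal scaled by the authors to 20000000 reads per library and rounded up to whole numbers. The study's legends describe it per kilobase, but the values are multiples of 1 step per library (at least 99.61% of values whole after division by it, within the rounding), so no length division was made. This recovered each library's reads, which were used for depth and for an edgeR alternative.

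Genes with at least 200 CP20M in at least 2 libraries were tested with limma 3.58.1 (R 4.3.3; trend) on log2(CP20M + 20), so fold changes of low genes are understated. A model with 1 coefficient per group was fitted to 18 organoid libraries (vehicle and regorafenib), 24 (5-FU) or 19 fibroblast libraries; p-values were Benjamini-Hochberg adjusted over all genes tested. A gene was called at adjusted p under 0.05 and a change of at least 1.5-fold. Lines are mice or cultures named in the labels. Libraries of 1 line deviated together (mean r 0.429, 0.503 and 0.719 in the 3 fits, beside -0.213, -0.249 and -0.229 between lines). Line as a replicate block is therefore given where it changes a call of a member, and for many but not all of the list counts that it changes. Without the block, p-values rest on the spread between lines within groups and take the libraries of 1 line as independent. With the block, p-values of treatment comparisons rest on the spread left after line differences are removed. No 2 libraries of a group agreed within sampling noise (51 pairs). On data simulated for the regorafenib comparison in organoids (11320 genes), 77.6% of 2-fold and 97.9% of 4-fold changes were recovered, with 4.5% false among the calls. For R10 in fibroblasts (11032 genes) these were 62% and 88%, with 5.1% false. The simulated libraries were drawn independently, without line effects, so these rates may not hold where libraries of 1 line deviate together. Alternatives changed pseudocount, filter, scaling, tool (edgeR 4.0.16 quasi-likelihood), block, libraries and thresholds. Members and lists were chosen with earlier results of these data known. A few genes of the lists are not reported here, and list counts leave them out. All members are named; of each list, up to 4 called genes with the smallest adjusted p, or the largest change where none was called, and the 3 genes most like the leading member of each table. The R10 values within lines were described after they were seen. Depth limits low values: intervals and steps of 1 read cover counting error only. Gene overlaps come from GENCODE M21 and upstream sequences from RefSeq, both on GRCm38. Tumoroid 5-FU libraries were placed by their genotype label, since their titles say colonoid.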

Additional observations from a re-analysis of the deposited data

Results flagged for a closer look

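Among 40 combinations of gene and fibroblast group with 4 samples, 5 held a value far from the others by Dixon's criterion, where chance gives about 1 in 20. In 4 of them the value was that of line M11 and lay low: Pgk1 with vehicle (5518 CP20M, the others 7222 to 7445), Ldha with A1 (5623, the others 12120 to 12213), Ldha with R4A1 (6742, the others 9457 to 10004) and Aldoa with A1 (14428, the others 20323 to 21470). In the fifth, Angptl4 with R4A1, line M3(2) lay high at 265 CP20M beside 83 to 104. Groups of 3 samples were not examined this way.

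Bnip3 under regorafenib was higher than vehicle in 3 of 3 colonoid lines and lower in 3 of 3 tumoroid lines, averaged over R4 and R8, with a difference between genotypes of -1.125 on the log2 scale. The difference itself was tested and not called (limma adjusted p = 1.00; 95% CI -2.75 to 0.50). Tumoroid M14 changed by -0.006, and the R4 library of colonoid M41 held 1 Bnip3 read.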

How the results depend on the processing

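Depth limits Bnip3, Car9 and Angptl4 in colonoid M41 with R4 to 1, 5 and 1 reads, and 3 or 4 lines per group limit all tests. Counts of called members were the same under pseudocounts of 5 and 100, trimmed-mean scaling, edgeR on recovered reads and other libraries in the fit, for the comparisons these were run on. With no filter on low values, 1 member (Car9) was called in tumoroids in place of 2. Stricter thresholds left 1 for regorafenib in both genotypes and 0 in each genotype alone, with Angptl4 still called for R10 and R4A1. With line as a replicate block the counts became 2 in colonoids, 1 for R8 against R4 in organoids, and 1 each for R4, for autogramin-2 added to R4 and for R10 against R4 in fibroblasts, and the block changed no other member call. Without the M41 R4 library R8 against R4 gave 1; with the replicate block as well, chosen after seeing the data, it gave 2 and colonoids gave 3. Leaving out 1 line at a time gave 1 to 2 called members in colonoids (2 without tumoroid M3), 0 to 2 in tumoroids (0 without F11), 0 to 1 with R4 (1 without M3(2)) and 0 to 1 with R4A1 (0 without M3 or M1(2)), and the same count elsewhere. No called member changed its direction under the block, edgeR or trimmed-mean scaling. Of the 126 pairs of member and comparison, 11, none called and all within 0.28 of 0 on the log2 scale, changed sign under at least 1 of these, among them Pdk1 and Bnip3 with R10 under the block. Over all genes, calls for Apc loss were 157, 310 by edgeR and 727 without the M41 R4 library. For regorafenib in tumoroids they were 768, 1159 and 1439, and for R8 against R4 in organoids 51, 95 and 130, or 96 with trimmed-mean scaling. For 5-FU they were 272, 427 and 493, or 584 with the block. The block moved R10 from 809 to 1519 and R4A1 from 183 to 771. Trimmed-mean scaling moved the median over all genes in colonoids from -0.145 to -0.034 and the share of calls that were higher from 40.8% to 54.5% (53.1% by edgeR); for R8 against R4 in organoids the median went from 0.112 to 0.023 and the share from 41.2% to 30.2% (27.4% by edgeR), and for the genotype difference the median went from 0.102 to 0.011. The cause of these changes was not tested.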
